A study of Mus musculus with 20 samples.

Results

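The genes described here are those of the cytosolic ribosomal proteins, chosen by symbol: Rpl or Rps followed by a number and at most a closing a, x or l, together with Rplp0, Rplp1, Rplp2 and Rpsa. Of the 23992 gene symbols in the files, 81 met this rule, 49 of the large subunit and 32 of the small subunit, and none was chosen by its measured level. RNA was sequenced from mouse T cells of spleen and lymph node, with strain C57BL/6N in the sample labels. Regulatory T cells (Tregs) came from B6-Foxp3EGFP reporter mice by CD4+ isolation and sorting for GFP, and CD8+ T cells came from C57BL/6J mice by CD8+ isolation without a sort. Cells of both types either stayed unstimulated or were given IL-2 at 200 nM, or the same dose of IL-2-REH, and were harvested after 1.5 h or 4 h. IL-2-REH is an engineered partial agonist of the IL-2 receptor with weakened recruitment of the common γ chain. Tregs had 3 libraries in each of the 5 groups and CD8+ T cells had 1, so that 15 and 5 libraries were compared. Whether same-group libraries came from separate animals was not stated, and the p-values then measure the spread between these libraries only.

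The ribosome joins a small subunit, which reads the mRNA, with a large subunit, which forms the peptide bond. Each ribosomal protein is present in a single copy per ribosome except in the stalk of the large subunit, where Rplp0 anchors dimers of Rplp1 and Rplp2 that recruit elongation factors. In mammals the mRNAs of these proteins begin with a C and a run of pyrimidines, the 5′ terminal oligopyrimidine (TOP) motif, through which mTOR controls their translation. In T cells, IL-2 signals through STAT5 as well as through mTOR, and ribosome production rises with growth.

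The TOP motif and the promoters are shown because they are known to be common in this class of genes. A RefSeq window of 250 bases before to 50 bases after the annotated start (GRCm38.p6) was found for 60 of the 81 genes. A C exactly at the annotated start and followed by at least 4 pyrimidines was found in 12 of the 60 windows (20%), against 2.49% of the windows of 27025 genes. When the C was allowed within 3 bases of the annotated start, the shares were 38.3% and 11.6%. In the following stretches, which run from 15 bases before the annotated start to 15 bases from it, the C and its pyrimidine run are in capitals.
Rps6, chr4:86857353-86857382 (- strand): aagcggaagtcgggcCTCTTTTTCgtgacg
Rps10, chr17:27635230-27635259 (- strand): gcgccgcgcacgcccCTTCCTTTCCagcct
Rps18, chr17:33955651-33955680 (- strand): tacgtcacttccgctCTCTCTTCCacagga
Rps27, chr3:90213634-90213663 (- strand): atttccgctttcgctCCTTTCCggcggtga
Rpl15, chr14:18270972-18271001 (- strand): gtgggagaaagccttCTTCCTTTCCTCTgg
Rpl35, chr2:39005117-39005146 (- strand): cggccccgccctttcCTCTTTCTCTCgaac
Rplp2, chr7:141447636-141447665 (+ strand): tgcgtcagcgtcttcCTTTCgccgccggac
The runs differed in length, from 5 bases in Rplp2 to 13 bases in Rpl15. Several of the most abundant mRNAs did not meet the rule exactly at their annotated start, as these 2 stretches without capitals show. With the C allowed within 3 bases of the start both met it, with runs of 6 bases in Rpl12 and 8 bases in Rps24.
Rpl12, chr2:32961697-32961726 (+ strand): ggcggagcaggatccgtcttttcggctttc
Rps24, chr14:24490663-24490692 (+ strand): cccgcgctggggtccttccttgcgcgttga

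The 7 letters CCGGAAG, the core bound by ETS family factors, were present on either strand in 24 of the 60 windows (40.0%), against 9.12% of all windows. The E-box CACGTG, which MYC can bind, was in 8.33% against 7.24%, and TATAAA was in 8.33% against 14.2%. The ETS core is shown in capitals, in either orientation, in the 50 bases before the annotated start of 3 genes that hold it there.
Rpl19, chr11:98026660-98026709 (+ strand): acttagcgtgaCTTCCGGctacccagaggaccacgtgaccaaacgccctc
Rps7, chr12:28635954-28636003 (- strand): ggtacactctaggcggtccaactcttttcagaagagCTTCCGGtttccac
Rpl38, chr11:114668530-114668579 (+ strand): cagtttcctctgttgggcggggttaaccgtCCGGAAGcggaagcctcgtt
A match of letters is a description of the sequence and no evidence of binding.

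The libraries held between 20201392 and 63903764 reads on genes, and the markers of the labelled cell types were present, Foxp3 (65.2 to 252 RPKM in Tregs and at most 0.999 in CD8+ libraries) as well as Cd8a (103 to 256 RPKM in CD8+ libraries and at most 1.84 in Tregs). Levels are given in RPKM, read counts divided by exon length and by the library's mapped reads. All 5 Treg libraries of replicate 3 carried erythroid marker RNA (172 to 299.9 RPKM summed over the list), against 6.90 to 26.7 RPKM in the other 10 Treg libraries. Since this held in unstimulated and stimulated cells alike, each group had 1 such library, and the part of these cells in the results was not tested. Summed B cell markers stayed at or below 17.6 RPKM, the value in replicate 3 of IL-2-REH at 4 h. The rest of that group stood at 3.98 and 4.00 RPKM, and unstimulated Tregs reached 16.5 RPKM. Its summed CD8 markers, 12.7 RPKM, were the highest of the Treg libraries. Foxp3 stood at 67.2 RPKM in it, against 113 and 124 RPKM in the rest of the group. Summed macrophage markers were 14.6 to 76.6 RPKM in unstimulated Tregs, 7.61 to 27.3 RPKM with IL-2 at 4 h and 10.8 to 33.8 RPKM with IL-2-REH at 4 h. A pair of Treg libraries stood apart in the ribosomal protein genes themselves and are given with and without in what follows: replicate 3 of IL-2 at 4 h, the shallowest library, and replicate 3 of IL-2-REH at 4 h.

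Ribosomal protein mRNAs were among the most abundant of the cells, and 77 of the 81 genes had a mean of at least 10 RPKM over the 20 libraries. Their median was 922 RPKM, 68 genes reached 500 RPKM and 30 reached 1000 RPKM. The 3 highest were Rpl12 with a mean of 1978 RPKM, Rps24 with 1708 RPKM and Rpl23a with 1705 RPKM. By the GENCODE M21 annotation of GRCm38, Rpl12 lies on chromosome 2 (chr2:32961559-32965345), Rps24 on chromosome 14 (chr14:24487125-24496959) and Rpl23a on chromosome 11 (chr11:78180932-78183584), and reads were counted over exons. Rpl12 sits at the base of the stalk in the large subunit, Rps24 belongs to the small subunit, and Rpl23a lies near the exit of the peptide tunnel. The 3 lowest with a mean of at least 1 RPKM were Rps4l (1.62 RPKM), Rps27l (35.3 RPKM) and Rpl22 (118 RPKM). Above Rpl22 came Rps15a, at 123 RPKM, whose listed transcript has 5134 bases of exon. The level per length of a gene depends on the transcript listed for it.

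Among the stalk proteins, Rplp1 had the highest level. In unstimulated Tregs Rplp1 stood at 1779, 1599 and 1167 RPKM, Rplp0 at 1035, 1095 and 981 RPKM and Rplp2 at 1020.3, 875 and 717 RPKM. The values of Rplp1 lay above those of Rplp0 and Rplp2 in each of these libraries, while the ranges of Rplp0 and Rplp2 overlapped. In the unstimulated CD8+ library the 3 genes stood at 2440.0, 1824 and 1201 RPKM in the same order. Of the small subunit, Rps6, the protein phosphorylated downstream of mTOR, stood at 862, 819.6 and 962 RPKM in unstimulated Tregs and 1707 RPKM in CD8+ cells. Rpsa, also known as the laminin receptor, stood at 824, 858 and 861 RPKM and 1586 RPKM. Rps4x, encoded on the X chromosome, stood at 1210.2, 1311 and 1455 RPKM and 2510.3 RPKM. In all 3 of these genes the CD8+ value lay above each Treg value.

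The order of the 77 genes by level was much alike in all libraries. Spearman's rho between pairs of libraries, taken across these genes, ranged from 0.888 to 0.997 in the 171 pairs without replicate 3 of IL-2 at 4 h, and from 0.676 to 0.750 in the 19 pairs with it. Genes are not independent replicates, and rho is given here as a description. The summed RPKM of the small subunit was 0.760 to 0.787 of that of the large subunit in 19 libraries and 0.817 in replicate 3 of IL-2 at 4 h. Over the 20 libraries the coefficient of variation of these genes ran from 15.2% (Rpl34) to 38.8% (Rps24), with a median of 23.8%.

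Read counts of some of these genes are uncertain because ribosomal protein mRNAs have left many processed copies in the genome. A median of 48.5% of the 50-base stretches of their transcripts occurred in another annotated gene, mostly pseudogenes, and 38 genes shared at least 50% of them. Rps27 and Rps27rt were listed with nearly the same reads (1251104 and 1249067 in all), as were Rpl34 and Rpl34-ps1 (421142 and 418944). The reads of these pairs cannot be told apart. Rps27rt was listed on the chromosome and strand of Rps27. Only uniquely mapped reads were counted, and whether these pairs are listings of the same place in the genome was not tested. Across the 77 genes the mean level and the shared percentage had a Spearman's rho of 0.202.

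Unstimulated CD8+ T cells held more ribosomal protein mRNA than Tregs, in 76 of 78 genes. The 78 are those with a mean of at least 1 RPKM, and the CD8+ value lay above all 3 Treg values in 76 of them, against 20.5% of 10457 genes. The median log2 ratio of CD8+ to the Treg mean, on the scale of RPKM + 1, was 0.70, against -0.11 over all genes. The 2 genes that fell within the Treg range were Rps27l and Rps4l, named here after their values were seen. The largest ratio was that of Rps24, with 1220.4, 1235 and 1610.1 RPKM in Tregs and 2932 RPKM in CD8+ cells, a log2 ratio of 1.11. Rpl12 stood at 1635, 1721 and 1870.4 RPKM in Tregs and 3435 RPKM in CD8+ cells. CD8+ cells had 1 library per group, so the ratios carry no test, and cell type cannot be told apart from the mouse strain, the sort and the preparation. More ribosomal protein mRNA per cell and less of other mRNAs cannot be told apart in such bulk samples.

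**Figure D1:**
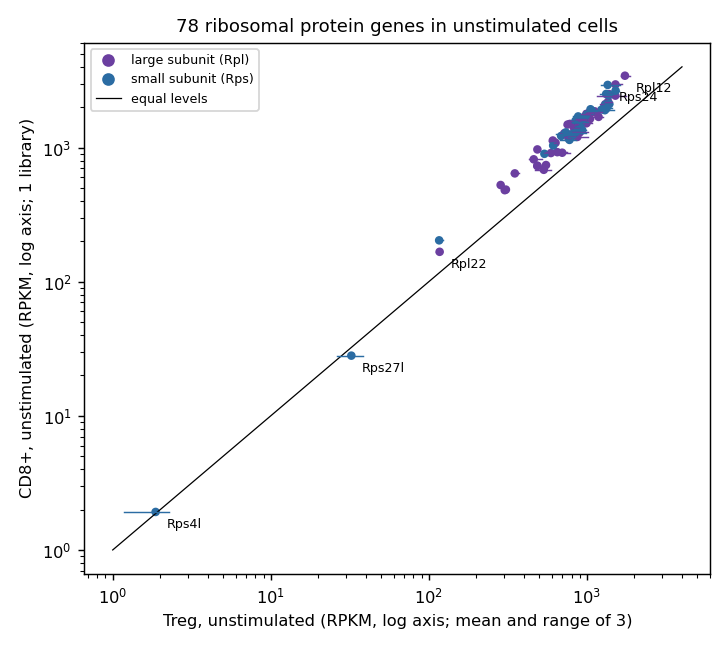
RPKM of 78 ribosomal protein genes in unstimulated Tregs (x axis, log scale, points at the mean of 3 libraries and bars over their range) and in the unstimulated CD8+ library (y axis, log scale). The line marks equal levels, and the points of 76 genes lie above it with their whole Treg range. The Treg ranges of Rps27l and Rps4l cross it, and the point of Rps27l lies below it.

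The median ratio stayed above 0 in every stimulated condition, with a smaller size. With IL-2-REH at 4 h, however, the count of genes was near the share of all genes. The CD8+ value lay above all 3 Treg values for 75 of the 78 genes with IL-2 at 1.5 h (29.8% of all genes), for 63 with IL-2-REH at 1.5 h (24.4%), for 64 with IL-2 at 4 h (22.8%) and for 20 with IL-2-REH at 4 h (23.6%). The median log2 ratios were 0.59, 0.33, 0.60 and 0.19 in this order. The last count turned on a single Treg library, for without replicate 3 of IL-2-REH at 4 h it was 71 of 78, against 27.1% of all genes. With each library centred on its median it was 17, against 33.1%. The count with IL-2 at 4 h was 75 without replicate 3 of that group, against 26.3%. In all 5 conditions the CD8+ value was above the Treg values for 19 genes, against 7.77% of all genes, and they included Rplp0, Rpsa, Rps4x, Rpl3, Rpl10, Rpl12 and Rpl23a. In at least 4 conditions it was above for 55 genes, against 14.9% of all genes. Rps27l and Rps4l were above in none. Below all 3 Treg values lay 2 genes with IL-2-REH at 1.5 h (39.7% of all genes), 4 with IL-2-REH at 4 h (40.5%) and 0 in unstimulated cells (35.4%), with IL-2 at 1.5 h (32.7%) and with IL-2 at 4 h (33.6%).

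The share of all reads on genes that fell on the 81 genes gives the same picture per library. In unstimulated Tregs it was 8.03%, 7.35% and 7.92% (7.77% ± 0.368, SD, n = 3), and in the unstimulated CD8+ library 13.3%. With IL-2 at 1.5 h it was 6.74%, 8.03% and 6.75% in Tregs and 11.7% in CD8+ cells. With IL-2-REH at 1.5 h it was 8.30%, 7.35% and 7.39% in Tregs and 11.3% in CD8+ cells. No Treg group at 1.5 h stood clear of the unstimulated Tregs in this share. With IL-2 at 4 h the share was 6.64%, 6.55% and 7.79% in Tregs and 10.96% in CD8+ cells. With IL-2-REH at 4 h it was 7.89%, 6.69% and 11.02% in Tregs and 10.6% in CD8+ cells. Replicate 3 of IL-2-REH at 4 h was the only Treg library within the range of the CD8+ libraries. Each share rests on at least 20201392 reads, and its Wilson interval at 95% extended at most 0.0117 percentage points to either side, which covers counting error alone. The spread between replicates was far larger.

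**Figure D2:**
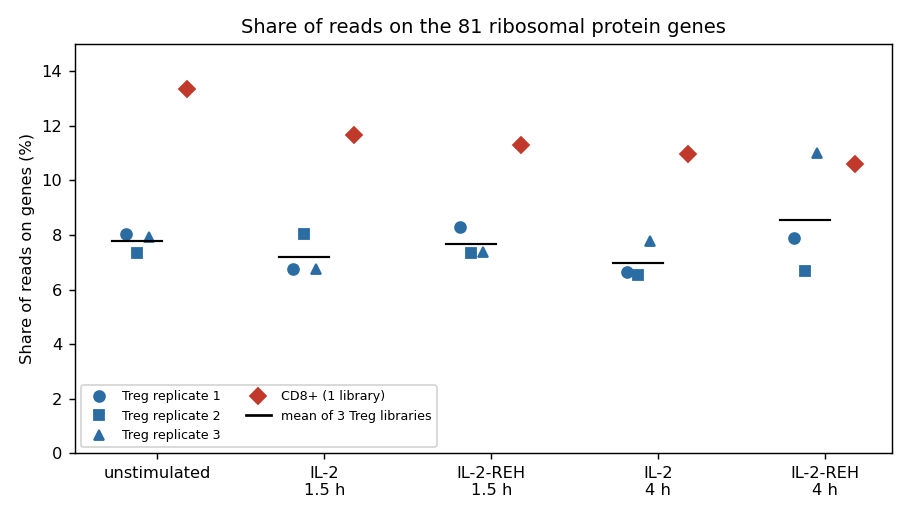
Share of reads on genes that fell on the 81 ribosomal protein genes (y axis, percent) in each library, by condition (x axis). Treg replicates are circles, squares and triangles with their mean as a bar, and diamonds are the single CD8+ libraries; the diamonds fall from 13.3% to 10.6%, and the Treg triangle with IL-2-REH at 4 h stands at 11.02%.

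Within a library the genes moved together, with 1 exception. Taking each of the 77 genes relative to its own median over the 20 libraries, the standard deviation among genes was 0.0553 to 0.214 (log2) in 19 libraries and 0.692 in replicate 3 of IL-2 at 4 h. In that library Rpl39 was lowest at -2.49, followed by Rps26 at -1.97 and Rpl29 at -1.65, and Rps14 was highest at 1.33 ahead of Rps24 at 0.86. Except for Rpl39 these genes are named after their values were seen. Among the 281 other genes with a mean of at least 100 RPKM the standard deviation in this library was 0.812, the highest of the Treg libraries, against 0.305 to 0.673 in the other 14. The deviations in this library had a correlation across genes of 0.21 with log2 exon length, 0.11 with GC content and 0.02 with shared sequence, given as a description over 77 genes. Fold changes of single ribosomal protein genes with IL-2 at 4 h are therefore given with and without it.

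**Figure D3:**
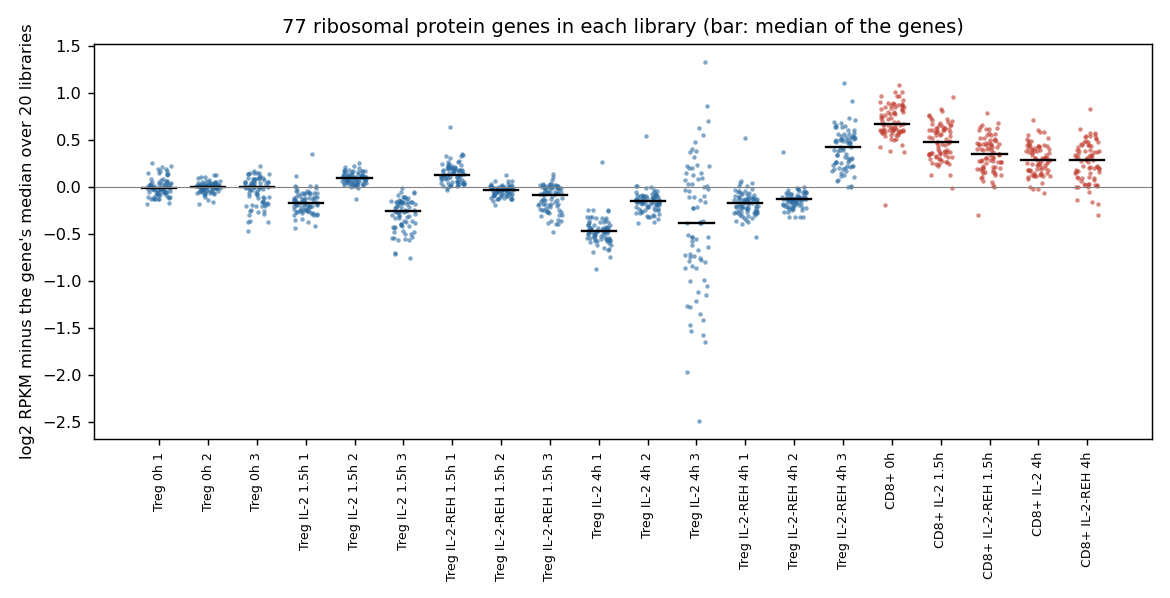
Log2 RPKM of 77 ribosomal protein genes in each of 20 libraries minus the median of the gene over the libraries (y axis), with Tregs in blue and CD8+ cells in red; each point is a gene and the bar is the median of the genes. The points are tight in all libraries except replicate 3 of IL-2 at 4 h, where they spread from -2.49 to 1.33, and all 5 CD8+ medians lie above 0.

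The first comparison in Tregs asked whether either cytokine changed these genes from their unstimulated level. No gene was called by edgeR's quasi-likelihood test at a Benjamini-Hochberg adjusted p under 0.05 over 15009 genes, in any of the 4 comparisons. Of the 81 genes 79 were tested, and Rpl3l and Rpl10l had too few reads. The shares of all genes called were 0.853% with IL-2 at 1.5 h, 2.27% with IL-2 at 4 h, 0.0933% with IL-2-REH at 1.5 h and 0.313% with IL-2-REH at 4 h. With the replicate number as a block the shares were 1.83%, 6.92%, 0.213% and 3.03% in the same order, and again 0 of 79 ribosomal protein genes were called. At an unadjusted p under 0.05 there were 7 lower genes with IL-2 at 4 h (9.81% of all genes), 1 without replicate 3 of IL-2 at 4 h, and 0 in either direction in the other 3 comparisons, against 13.8% of all genes with IL-2 at 1.5 h, 11.4% with IL-2-REH at 1.5 h and 13.3% with IL-2-REH at 4 h. DESeq2 and limma also called 0 of these genes in the 4 comparisons, and the shares of all genes that they called are not given here.

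The median log2 fold change of the 79 genes was 0.04 with IL-2 at 1.5 h, -0.24 with IL-2 at 4 h, 0.14 with IL-2-REH at 1.5 h and 0.08 with IL-2-REH at 4 h. Over all genes the medians were -0.06, -0.00, -0.05 and 0.01. In the fit without the replicate block the standard errors had a median of 0.246. The intervals at 95% extended a median of 0.53 to either side, before any adjustment over genes. Positive and negative fold changes numbered 63 and 16, 13 and 66, 78 and 1, and 61 and 18 in the same order. Their shares over all genes were not counted. The median for IL-2 at 1.5 h was 0.23 without replicate 1 of each group and -0.18 without replicate 2. The median for IL-2-REH at 4 h was -0.20 without its replicate 3. On the scale of RPKM the 3 same-numbered pairs of libraries moved in mixed directions with IL-2 at 1.5 h, with pair medians of -0.16, 0.10 and -0.25. The pair medians were 0.15, -0.03 and -0.08 with IL-2-REH at 1.5 h, and -0.06, 0.33 and 0.17 after TMM scaling. In RPKM they were -0.17, -0.14 and 0.43 with IL-2-REH at 4 h, and -0.47, -0.16 and -0.29 with IL-2 at 4 h.

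With IL-2 at 4 h many ribosomal protein genes stood below the unstimulated Tregs without overlap. In 37 of the 78 genes with a mean of at least 1 RPKM in Tregs, all 3 values lay below all 3 unstimulated values in RPKM, against 9.15% of 10473 genes. Macrophage markers had a median log2 fold change of -2.03 in this comparison. Of these, 0 of 6 were called by edgeR without and 4 of 6 with the replicate block. The T cell markers Cd3d, Cd3e and Cd3g had a median of -0.77. Among them 1 of 3 was called lower without and 2 of 3 with the block. The part of either list in the result was not tested. Without replicate 3 of IL-2 at 4 h the count in RPKM was 54, against 10.8% of all genes, and without replicate 1 of the unstimulated cells it was 40, against 28.4%. Rps18 (chromosome 17, chr17:33951999-33956001), a small subunit protein named after its values were seen, stood at 1320.2, 1427 and 1389 RPKM before and at 864, 1167 and 566 RPKM after IL-2 for 4 h. Its groups did not overlap, the log2 fold change was -0.63 with a standard error of 0.234, and the adjusted p of 0.184 by edgeR was the lowest of the 79 genes in this comparison. Without replicate 3 of IL-2 at 4 h the log2 fold change of Rps18 was -0.45. Rpl3, which lies close to the site of peptide bond formation, stood at 795, 892 and 899 RPKM before and 475, 671 and 888 RPKM after, and its groups overlapped through replicate 3.

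Rpl39 and Rps14 show how much replicate 3 of IL-2 at 4 h decides. Rpl39 (chromosome X, chrX:37082520-37085402), a very small protein of the peptide tunnel, stood at 1024, 910.2 and 772 RPKM in unstimulated Tregs and 711, 711 and 157.5 RPKM with IL-2 at 4 h, a log2 fold change of -0.76 (edgeR, standard error 0.390, adjusted p = 0.329). Without that library the log2 fold change was -0.35. Rps14, a small subunit protein chosen after its values were seen, stood at 1272, 1306 and 1351 RPKM and 951, 1189.9 and 3315 RPKM, a log2 fold change of 0.59 (edgeR, standard error 0.402, adjusted p = 0.468) that turned to -0.30 without the library. Rps6 stood at 640.3, 805 and 1034 RPKM after IL-2 for 4 h, of which the first 2 values lay below all unstimulated values and the third above them. Its log2 fold change was -0.02 (interval at 95% from -0.62 to 0.59), and -0.30 without replicate 3 of IL-2 at 4 h.

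The second comparison set IL-2-REH against IL-2 in Tregs. No ribosomal protein gene was called by edgeR at 1.5 h or at 4 h, where 0.0133% and 0.0267% of all genes were called, or with the replicate block, where 0.0666% of all genes were called at 4 h. DESeq2 and limma, whose shares of all genes called are not given here, also called 0 ribosomal protein genes. At an unadjusted p under 0.05 there were 0 of these genes at 1.5 h, against 0.993% of all genes, and 15 higher ones at 4 h, against 1.35%. Without replicate 3 of IL-2 at 4 h, and equally without replicate 3 of IL-2-REH at 4 h, 0 genes were below an unadjusted p of 0.05. The median log2 fold change was 0.10 at 1.5 h and 0.32 at 4 h, with 78 of 79 and 72 of 79 genes above 0. The shares of all genes above 0 were not counted. Without replicate 3 of IL-2-REH at 4 h the median at 4 h was 0.08, and all-gene medians were 0.02 and 0.01. At 1.5 h the same-numbered pairs were mixed, with RPKM pair medians of 0.30, -0.13 and 0.17. Higher in the second pair was 1 of 78 genes, and in all 3 pairs 1, against 21.4% of all genes.

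Values at 4 h differed most in the third pair of libraries. In RPKM the median log2 ratio of IL-2-REH to IL-2 was 0.29, 0.02 and 0.71 in the 3 same-numbered pairs, and 51 of 78 genes were higher in all of them, against 29.8% of all genes. After TMM scaling 39 were, against 22.2%. The IL-2-REH values lay above all IL-2 values in 16 genes, against 6.31% of all genes. Leaving out a library moved the count in RPKM to 33 (12.7% of all genes) without replicate 1 of IL-2-REH, to 45 (19.2%) without replicate 2 of IL-2 and to 30 (8.74%) without replicate 3 of IL-2. Rps27 is a zinc finger protein of the small subunit, and its reads cannot be told apart from those of Rps27rt. It stood at 1243, 1323 and 559 RPKM with IL-2 and 1527, 1418 and 2566 RPKM with IL-2-REH. Its groups did not overlap, and its log2 fold change of 0.80 (standard error 0.314) had an adjusted p of 0.9996 by edgeR. It was 0.53 without replicate 3 of IL-2 and 0.42 without replicate 3 of IL-2-REH. Rplp0 stood at 736, 1132 and 778 RPKM with IL-2 and 928, 1128 and 1176 RPKM with IL-2-REH, with overlapping groups and a log2 fold change of 0.24 (interval at 95% from -0.17 to 0.64). It was 0.22 without replicate 3 of IL-2 and 0.12 without replicate 3 of IL-2-REH.

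Between 1.5 h and 4 h no ribosomal protein gene was called in Tregs by edgeR or DESeq2. Limma, whose share of all genes called is not given here, called 0 of them as well. Of all genes edgeR called 0% in the IL-2 and 0% in the IL-2-REH comparison, edgeR with the replicate number as a block called 0.386% and 0.0400%, and DESeq2 called 2.55% and 1.67%. At an unadjusted p under 0.05 by edgeR 11 of them were lower at 4 h with IL-2, against 9.01% of all genes, and 0 with IL-2-REH, against 14.6%. Without replicate 3 of IL-2 at 4 h the 11 became 1. The median log2 fold changes were -0.27 for IL-2 and -0.05 for IL-2-REH, and without replicate 3 of the 4 h group they were -0.35 and -0.33.

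**Figure D4:**
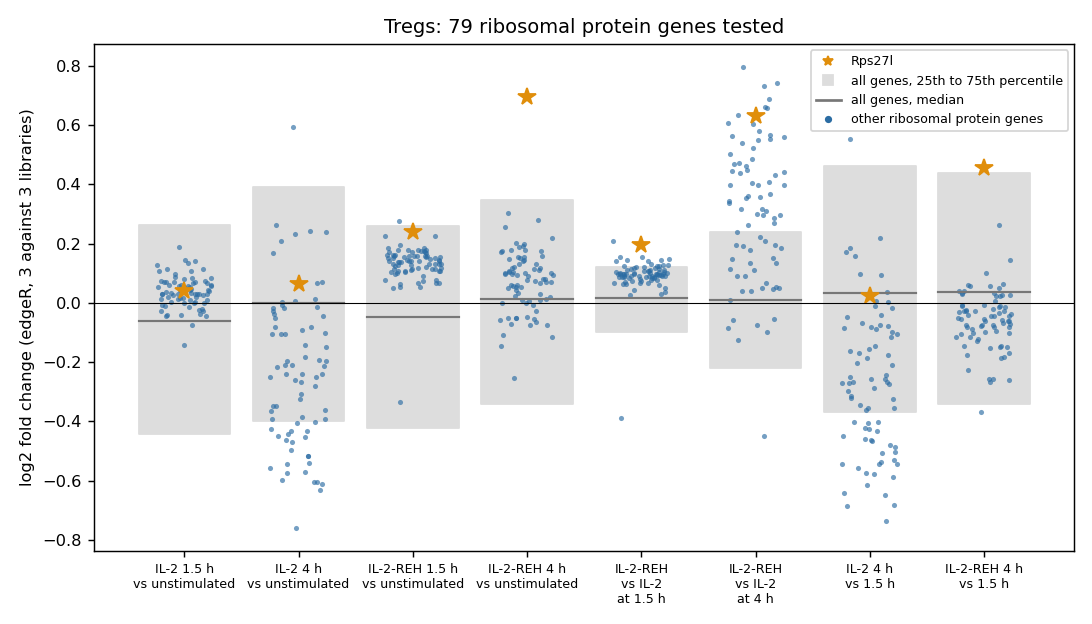
Log2 fold changes by edgeR of 79 ribosomal protein genes in the 8 Treg comparisons (points, Rps27l as a star), over the middle 50% of all 15009 genes (grey box) and their median (grey line). The points lie mostly below 0 with IL-2 at 4 h and mostly above 0 for IL-2-REH against IL-2 at 4 h, and none passed the adjusted threshold.

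In CD8+ T cells nearly all ribosomal protein genes were lower in every stimulated library than in the unstimulated one. The median log2 ratio of RPKM + 1 over 78 genes was -0.22 with IL-2 at 1.5 h, -0.35 with IL-2-REH at 1.5 h, -0.41 with IL-2 at 4 h and -0.43 with IL-2-REH at 4 h. Over 10021 genes the medians were -0.04, -0.12, -0.07 and -0.02. Below 0 were 77, 78, 77 and 78 of the 78 genes, against 53.0%, 59.5%, 58.7% and 52.2% of all genes. The 4 ratios share the single unstimulated library, so its own error enters all of them alike, and with 1 library per group there is no replicate check. Markers of other cells were lower as well, with 6 of 6 macrophage and 5 of 5 B cell markers below the unstimulated library in all 4. The T cells' own markers Cd3d, Cd3e, Cd3g, Cd8a and Cd8b1 were also lower in all 4, with log2 ratios from -0.33 to -1.40. Summed macrophage markers were 35.5 RPKM in the unstimulated and 13.2 to 19.8 RPKM in the stimulated libraries, B cell markers 10.7 and 3.29 to 5.34 RPKM, and erythroid markers 10.1 and 3.10 to 6.31 RPKM. None of these markers was at 0, and their part in the result was not tested. No ratio was above 1 in size, against 7.24%, 8.57%, 4.71% and 6.11% of all genes. The middle 50% of the genes lay between -0.44 and -0.38 with IL-2 at 4 h, against -0.33 to 0.16 for all genes.

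The values of single genes follow in the order unstimulated, IL-2 at 1.5 h, IL-2-REH at 1.5 h, IL-2 at 4 h and IL-2-REH at 4 h. Rplp0 stood at 1824, 1553, 1426, 1396 and 1401 RPKM. Rplp1 stood at 2440.0, 1914, 1725, 1737 and 1616 RPKM and had the lowest ratio with IL-2 at 1.5 h, -0.35. Rps2, a small subunit protein with the lowest ratio in both libraries at 4 h, stood at 1374, 1134, 1084, 925 and 854 RPKM. In each of these genes the unstimulated library was the highest, and for Rplp1 and Rps2 the IL-2-REH library at 4 h was the lowest. Rps6 stood at 1707, 1516, 1428, 1328 and 1297 RPKM and Rps4x at 2510.3, 2192, 2051, 1900.2 and 1968 RPKM. Other low ratios named by the same rule were those of Rpl37 with IL-2 at 1.5 h (-0.34) and IL-2-REH at 4 h (-0.64), Rps4l and Rplp1 with IL-2-REH at 1.5 h (-0.53 and -0.50) and Rpl3 with IL-2 at 4 h (-0.56). The second highest ratios were those of Rpl9 (-0.11), Rpl24 (-0.28), Rps20 (-0.25) and Rps27 (-0.24), with IL-2 at 1.5 h, IL-2 at 4 h, IL-2-REH at 1.5 h and IL-2-REH at 4 h.

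Rps27l was the highest of the 78 genes in all 4 of these comparisons. It lies on chromosome 9 (chr9:66946086-66949516) and encodes a close relative of Rps27 that is known as a target of p53. In CD8+ cells it stood at 28.1, 32.03, 26.2, 39.1 and 26.1 RPKM, with log2 ratios to the unstimulated library of 0.18, -0.10, 0.46 and -0.10 for IL-2 at 1.5 h, IL-2-REH at 1.5 h, IL-2 at 4 h and IL-2-REH at 4 h. Both IL-2 libraries lay above the unstimulated one and both IL-2-REH libraries below it. Against IL-2 its ratio with IL-2-REH was the lowest of the 78 genes, -0.28 at 1.5 h and -0.57 at 4 h. Rps27 stood at 2658, 2395, 2111, 2109 and 2249 RPKM, and its ratio to the unstimulated library was negative in all 4. In Tregs Rps27l stood at 38.4, 32.5 and 26.2 RPKM in unstimulated cells, 38.8, 46.9 and 14.5 RPKM with IL-2 at 4 h and 46.0, 41.6 and 69.1 RPKM with IL-2-REH at 4 h. The highest log2 fold change of the 79 genes with IL-2-REH at 4 h against unstimulated Tregs was that of Rps27l, 0.69 (edgeR, standard error 0.346, adjusted p = 0.416), and it was 0.39 without replicate 3 of IL-2-REH at 4 h.

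IL-2-REH and IL-2 differed little from each other in the ribosomal protein genes of CD8+ cells. At 1.5 h the median log2 ratio of IL-2-REH to IL-2 was -0.13 and all 78 genes were below 0, against a median of -0.07 and 70.5% below 0 over all genes. At 4 h the median was -0.03 and 50 of 78 were below 0, against 0.08 and 38.2%. The highest ratio at 4 h was that of Rpl9, 0.13, followed by Rps24, 0.12, and after Rps27l the lowest was that of Rps4l, -0.22. At 1.5 h the highest were Rpl41 (-0.02) and Rpl34 (-0.06), and Rpl31 was second lowest (-0.27). Myc, a regulator of ribosome production that is no member of the group, stood at 39.4, 32.3, 8.98, 70.0 and 10.8 RPKM in the same libraries, a log2 ratio of IL-2-REH to IL-2 of -2.59 at 4 h. Between 1.5 h and 4 h the median log2 ratio was -0.19 for IL-2 and -0.08 for IL-2-REH, and 77 and 69 of the 78 genes were lower at 4 h, against 57.2% and 42.1% of all genes. With IL-2 the highest of these ratios were Rps27l (0.28) and Rps4l (-0.09), and the lowest were Rpl3 (-0.32) and Rpl22 (-0.32). With IL-2-REH the highest were Rps27 (0.09) and Rpl24 (0.08), and the lowest were Rps2 (-0.34) and Rpl41 (-0.34).

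**Figure D5:**
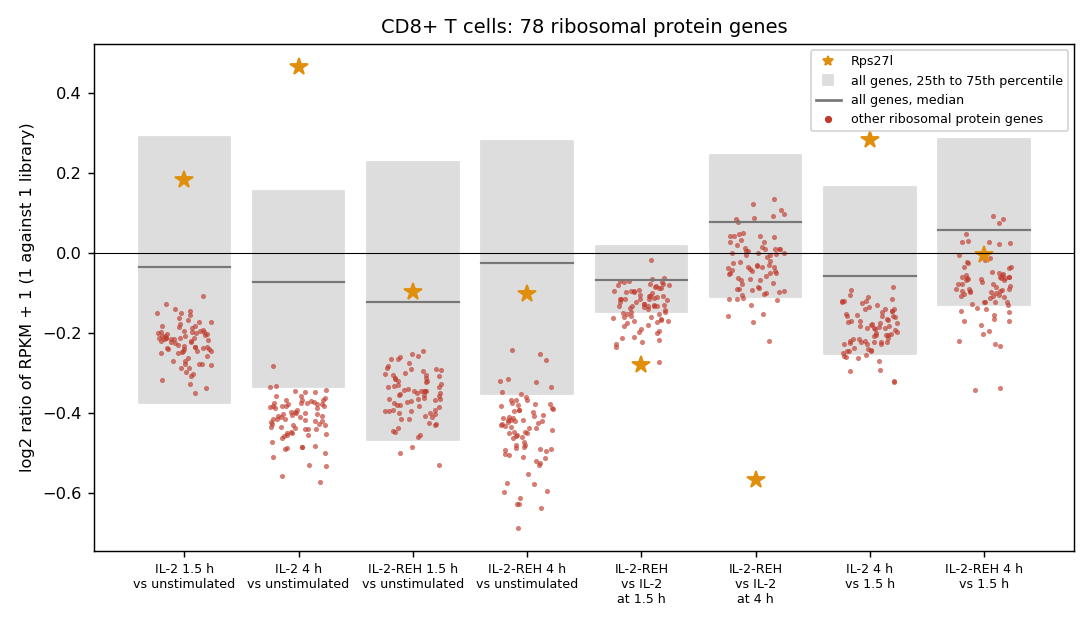
Log2 ratios of RPKM + 1 of 78 ribosomal protein genes in 8 comparisons of single CD8+ libraries (points, Rps27l as a star), over the middle 50% of 10021 genes (grey box) and their median (grey line). The points lie below 0 in the 4 comparisons with the unstimulated library except for Rps27l with IL-2 at 1.5 h (0.18) and at 4 h (0.46).

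Except for Rps27l, with a mean of 35.3 RPKM, the restricted or duplicated copies of ribosomal protein genes were at or near 0 beside their parents. Rpl10l, a testis copy of Rpl10, had 0 reads of 628429658 in the 15 Treg libraries, which allows a share of up to 4.77e-07%, and 8 reads in the 5 CD8+ libraries. Rpl3l, the copy of Rpl3 in striated muscle, had 6 reads in Tregs and 5 in CD8+ cells. These 2 genes had fewer than 10 reads in every library. Rpl39l, a copy of Rpl39 active in testis, had a mean of 0.508 RPKM in Tregs and 0.451 RPKM in CD8+ cells, while Rpl39 averaged 795 and 1077 RPKM. Rps4l, listed as a noncoding transcript, had a lowest, median and highest value of 1.18, 1.81 and 2.26 RPKM in the 15 Treg libraries and stood at 1.92, 1.36, 1.02, 1.22 and 0.91 RPKM in CD8+ cells. Neither Rpl39l nor Rps4l shares most of its sequence with another gene (0% and 14.9% of 50-base stretches). Rpl10, with 859.7, 912 and 992 RPKM in unstimulated Tregs and 1646, 1418, 1297, 1246 and 1255 RPKM in the CD8+ libraries, was at the level of the other ubiquitous members.

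Other genes of the translation machinery were followed as lists. In CD8+ cells, translation and other TOP mRNAs that encode no ribosomal protein (Eef1a1, Eef2, Tpt1 and others) were lower than unstimulated in 18, 19, 18 and 19 of 19 genes with IL-2 at 1.5 h, IL-2-REH at 1.5 h, IL-2 at 4 h and IL-2-REH at 4 h, with medians of -0.16, -0.27, -0.37 and -0.30. The exception was Vim, the intermediate filament vimentin, at 0.45 with IL-2 at 1.5 h and 1.01 with IL-2 at 4 h. Eef1a1, the elongation factor that delivers tRNA, had ratios of -0.16, -0.27, -0.34 and -0.28. In unstimulated cells the CD8+ value lay above all 3 Treg values for 15 of the 19, against 20.5% of all genes. In the stimulated conditions, in the same order, it did for 14 (29.8%), 10 (24.4%), 12 (22.8%) and 11 (23.6%). Their median log2 fold changes against unstimulated Tregs were 0.10, 0.12, -0.33 and -0.06 in this order. In Tregs 1 of these 19 genes was called, Vim, higher with IL-2 at 4 h (log2 fold change 1.70, edgeR adjusted p = 0.0174), and with the replicate block it was called with IL-2 at 1.5 h as well (log2 fold change 0.98, edgeR adjusted p = 0.0466). Regulators of ribosomal protein production and TOP translation (Larp1, Mtor, Rps6kb1, Myc and others) were called in 0 of 20 genes in each Treg comparison. With the replicate block edgeR called Myc and Larp4 higher with IL-2 at 1.5 h, and Myc and Larp1 with IL-2 at 4 h. The CD8+ medians of these 20 genes lay between -0.02 and 0.08 in the 4 comparisons with the unstimulated library. Of the list of IL-2 targets, Cish, an inhibitor of STAT5 signaling, rose in Tregs with IL-2 at 1.5 h by 2.12 on the log2 scale (edgeR adjusted p = 7.59e-05), and stood at 1.87, 30.6, 2.47, 26.1 and 2.45 RPKM in the CD8+ libraries. Immediate early genes were lower in CD8+ cells as well, 9 of 9 in all 4 stimulated libraries with medians from -2.34 to -3.41, and in Tregs 4 of the list were called lower with IL-2 at 4 h, among them Fos and Junb.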

How the data were processed

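RNA of 15 mouse Treg and 5 CD8+ T cell samples was sequenced from Kapa mRNA libraries. The submitters' processing notes name TopHat2 2.1.1, Bowtie2 2.2.6, SAMtools 0.1.8, bedtools 2.25.0 and edgeR, and the build mm10. The deposited counts are numbers of uniquely mapped reads per RefSeq transcript, taken over its exons in each library and not normalized. The authors also deposited the RPKM of each transcript, scaled to exon length and mapped reads. Whether counting used strand was not given in the sources used here.

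For each symbol the transcript with the most reads over 20 libraries was used, which for 11 of the 81 genes was a choice among several (100 transcripts in all). Counts of the 15 Treg libraries were tested with edgeR 4.0.16 in R 4.3.3 (TMM, filterByExpr, glmQLFit and glmQLFTest, 1 mean per group), with Benjamini-Hochberg adjustment over 15009 genes and a threshold of 0.05. DESeq2 1.42.0 and limma 3.58.1 on log2(RPKM + 1) and log2(RPKM + 0.1) were alternatives, beside other scalings, filters, transcripts and left-out libraries. CD8+ libraries, 1 per group, were compared by log2 ratios of RPKM + 1 over genes with a mean of at least 1 RPKM, without a test. RPKM was used as deposited for levels, so that a fold change on the scale of RPKM + 1 understates changes of low genes.

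Same-numbered Treg libraries deviated together from their group means (correlation across genes 0.121 to 0.839 in 30 pairs of libraries, all above 0.1), so that the replicate numbers of the labels were taken as pairs in an alternative fit. The fit was also run on simulated counts that held no replicate pairing, and that result is not given here. Libraries held 20201392 to 63903764 reads on genes. Sequences are from RefSeq (GRCm38.p6) and gene positions from GENCODE M21.

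The genes and lists were chosen with earlier results of these data known. Named were the stalk genes, Rpsa, Rps6, Rps4x and the restricted copies with their parents, the 3 highest and 3 lowest levels among genes with a mean of at least 1 RPKM, the 3 largest changes in each direction past the threshold of each Treg comparison, the 2 highest and 2 lowest ratios of each CD8+ comparison, and genes with fewer than 10 reads in every library. The result of 1 list of further genes is not reported here, and its genes were left out of the list of TOP mRNAs.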

Additional observations from a re-analysis of the deposited data

Results flagged for a closer look

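A pair of results was flagged where IL-2-REH was set against IL-2 at 4 h. Without TMM scaling they lay above 0 in all 3 same-numbered Treg pairs and below 0 in the CD8+ pair. The difference between the cell types was not tested. The share of reads on the 81 ribosomal protein genes had a log2 ratio of 0.03 to 0.50 in the Treg pairs and of -0.0494 in the CD8+ pair. Rps6 had a log2 ratio of RPKM of 0.0002 to 0.33 in the Treg pairs and of -0.0347 in the CD8+ pair. The Treg pair with the lowest value of both was that of replicate 2. Its Rps6 value of 0.0002 is too close to 0 to give a direction. It falls below 0 after TMM scaling, with factors of 1.045 for IL-2-REH and 1.028 for IL-2.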

How the results depend on the processing

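Under all 144 alternative fits of the 8 Treg comparisons, the replicate block included, 0 ribosomal protein genes were called, and the block changed no call of these genes. The share of all genes called is given above for only some of these fits. The median log2 fold change of these genes in Tregs ranged over the alternatives from -0.18 to 0.23 (IL-2 at 1.5 h), -0.33 to -0.09 (IL-2 at 4 h), 0.01 to 0.23 (IL-2-REH at 1.5 h) and -0.20 to 0.26 (IL-2-REH at 4 h) against unstimulated cells, from -0.03 to 0.22 and 0.08 to 0.48 for IL-2-REH against IL-2 at 1.5 h and 4 h, and from -0.40 to -0.14 (IL-2) and -0.33 to 0.08 (IL-2-REH) for 4 h against 1.5 h, so that the sign depended on the setting in 4 of the 8. The log2 fold change of Rps14 with IL-2 at 4 h was -0.24 without replicate 3 of every group, and ranged from -0.30 to 0.95 over all fits that left out a replicate or a library. That of Rps6 was 0.0032 when fitted on the groups compared alone, and ranged from -0.30 to 0.18 over the fits that left out a replicate or a library. Without 1 library of either group, 16 to 45 genes were higher without overlap with IL-2-REH than with IL-2 at 4 h, against 8.74% to 19.2% of all genes, and after TMM scaling 13, against 4.67%. The 37 lower ones with IL-2 at 4 h against unstimulated cells became 27 after TMM scaling, against 11% of all genes. In CD8+ cells the 5 medians under alternatives kept their direction in each comparison, while counts past a log2 ratio of 0.5 in place of 1 rose from 0 to 5 (IL-2 at 4 h), 2 (IL-2-REH at 1.5 h) and 17 (IL-2-REH at 4 h) against the unstimulated library and to 1 for IL-2-REH against IL-2 at 4 h. With a pseudocount of 0.1 the count with IL-2-REH at 4 h was 1. The shares of all genes past 0.5, or with this pseudocount, were not counted. These counts are therefore not read as a trait of the ribosomal protein genes. The number of genes with a CD8+ value above the Treg values with IL-2-REH at 4 h ranged from 20 to 71 when a Treg replicate was left out, against 26.8% to 34.5% of all genes. The log2 ratio of the CD8+ to the Treg share of reads was 0.78 in unstimulated cells and 0.56 by summed RPKM, and with IL-2-REH at 4 h it was 0.31 and ranged from 0.16 to 0.54 when a Treg replicate was left out. The causes were not tested. With 1 CD8+ library per group no difference there has a replicate check. With 3 Treg libraries the intervals at 95%, from the fit without the replicate block, extended a median of 0.53 (log2) to either side before adjustment. Changes of up to 0.80 among the genes named were not called.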

Other observations

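The deviations of the 77 ribosomal protein genes from their medians were related to log2 exon length in a way that differed between libraries. Across genes, Pearson's correlation ranged from -0.52 to 0.47 over the 15 Treg libraries and from 0.25 to 0.35 over the 5 CD8+ libraries. With GC content it ranged from -0.45 to 0.33 in Tregs and from -0.49 to -0.28 in CD8+ cells. These values are a description over 77 genes that share their libraries, and their part in the differences between cell types was not tested.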
